A study of Homo sapiens with 6 samples.

Results

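The CCR4-NOT complex is the main deadenylase of human cells, and the transcripts of 10 of its subunit genes, CNOT1, CNOT2, CNOT3, CNOT4, CNOT6, CNOT6L, CNOT7, CNOT8, CNOT10 and CNOT11, were followed here. They were taken by name from the deposited count table through GENCODE release 29, which gave 10 of the 58721 genes in the table. HEK293T, a line made from human embryonic kidney, was used in both groups: 3 libraries came from cells in which ALKBH5 and FTO had both been knocked out with CRISPR/Cas9, and 3 from cells of the wild type. Both groups were grown alike in DMEM with fetal calf serum, and the RNA came from cleared Triton lysates, called cytoplasmic in the labels, with ribosomal RNA depleted and no poly(A) selection. The number of knockout clones is not stated in the labels, and the wild type columns carry the name HEK293G6, which the labels do not explain, so the knockout and other differences between the cell lines cannot be told apart. The libraries are independent biological replicates per the labels.

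Shortening of the poly(A) tail is usually the first step in the decay of an mRNA. In CCR4-NOT, CNOT1 is a long scaffold onto which the other subunits dock, and the complex holds deadenylases of different families: CNOT6 or CNOT6L, of the exonuclease-endonuclease-phosphatase (EEP) family, and CNOT7 or CNOT8, of the DEDD family. ALKBH5 and FTO remove N6-methyladenosine (m6A) from RNA, and the m6A reader YTHDF2 recruits CCR4-NOT to methylated mRNAs through CNOT1, which is how this complex and this mark are linked in mRNA decay.

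The libraries held between 5923328 and 6433469 gene counts in double knockout and between 5634648 and 7551825 in wild type. Values are given as CPM, counts per 1000000 counts after TMM scaling of the libraries. Both targeted transcripts were lower but still present: FTO averaged 56.1 ± 4.21 CPM in double knockout and 105 ± 7.83 CPM in wild type, and ALKBH5 averaged 186 ± 0.599 CPM in double knockout and 245 ± 10.3 CPM in wild type (SD, n = 3 each). All 10 genes listed as expressed by HEK293 cells were detected at a mean of at least 1 CPM, with a summed level of 1759 to 1766 CPM in double knockout and 1314 to 1388 CPM in wild type. Haematopoietic markers summed to 2.08 to 2.92 CPM in double knockout and 1.45 to 2.34 CPM in wild type, with CD3E and HBB at 0 counts, and fibroblast markers summed to 9.49 to 12.5 CPM in double knockout and 12.8 to 16.4 CPM in wild type, with COL1A2 at 0 counts.

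The nuclease pairs are encoded by paralogs, so the sequences were first compared to see whether reads could be confused between them. The longest coding sequences of CNOT6L (1665 bases) and CNOT6 (1671 bases) in GENCODE release 29 were identical at 72.3% of aligned positions, and their longest identical run was 20 bases. The coding stretch around that run, bases 890 to 1009 of both, is shown because it is where the paralogs come closest in this respect. Capitals mark the 28 of 120 positions at which they differ.
CNOT6L (chromosome 4): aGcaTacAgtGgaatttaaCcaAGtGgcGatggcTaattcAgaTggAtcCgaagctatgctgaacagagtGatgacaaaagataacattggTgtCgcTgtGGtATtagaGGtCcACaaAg
CNOT6 (chromosome 5): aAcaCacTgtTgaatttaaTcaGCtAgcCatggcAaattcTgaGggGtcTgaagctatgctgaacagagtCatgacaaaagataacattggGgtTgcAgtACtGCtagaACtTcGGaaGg
No word of 50 bases was shared by any annotated transcript of CNOT6L with any of CNOT6, nor by any of CNOT8 with any of CNOT7, whose coding sequences were identical at 69.5% of aligned positions. The processed pseudogenes of CNOT4, CNOT6L and CNOT7 had at most 4 counts in any library. Read length is not given in the sources used here.

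Of the 10 subunits, all of which were tested, 8 fell in the double knockout, 0 rose and 2 did not pass (edgeR quasi-likelihood test, Benjamini-Hochberg adjusted over 14180 tested genes, threshold 0.05). Over all tested genes 28.5% were lower and 28.6% were higher. The median log2 fold change of the 10 subunits was -0.32, against 0.01 over all tested genes. The subunits divided by size of change. CNOT6L, CNOT4, CNOT6, CNOT10 and CNOT1 changed by -0.62 to -0.42, and these 5 were also called against a minimum change of 1.2-fold, a rule under which 12.4% of all tested genes were lower. CNOT2, CNOT3 and CNOT8 fell by less, and CNOT7 and CNOT11 did not pass. In TMM-scaled CPM the double knockout and wild type libraries did not overlap in any of the 10. All double knockout libraries were lower in 9 and higher in 1. The gap was only 0.198 CPM in CNOT7, and overlap was not examined under other scalings, so these counts rest on that scaling. Over all tested genes 30.3% had all double knockout libraries lower and 30.3% had all of them higher.

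**Figure D1:**
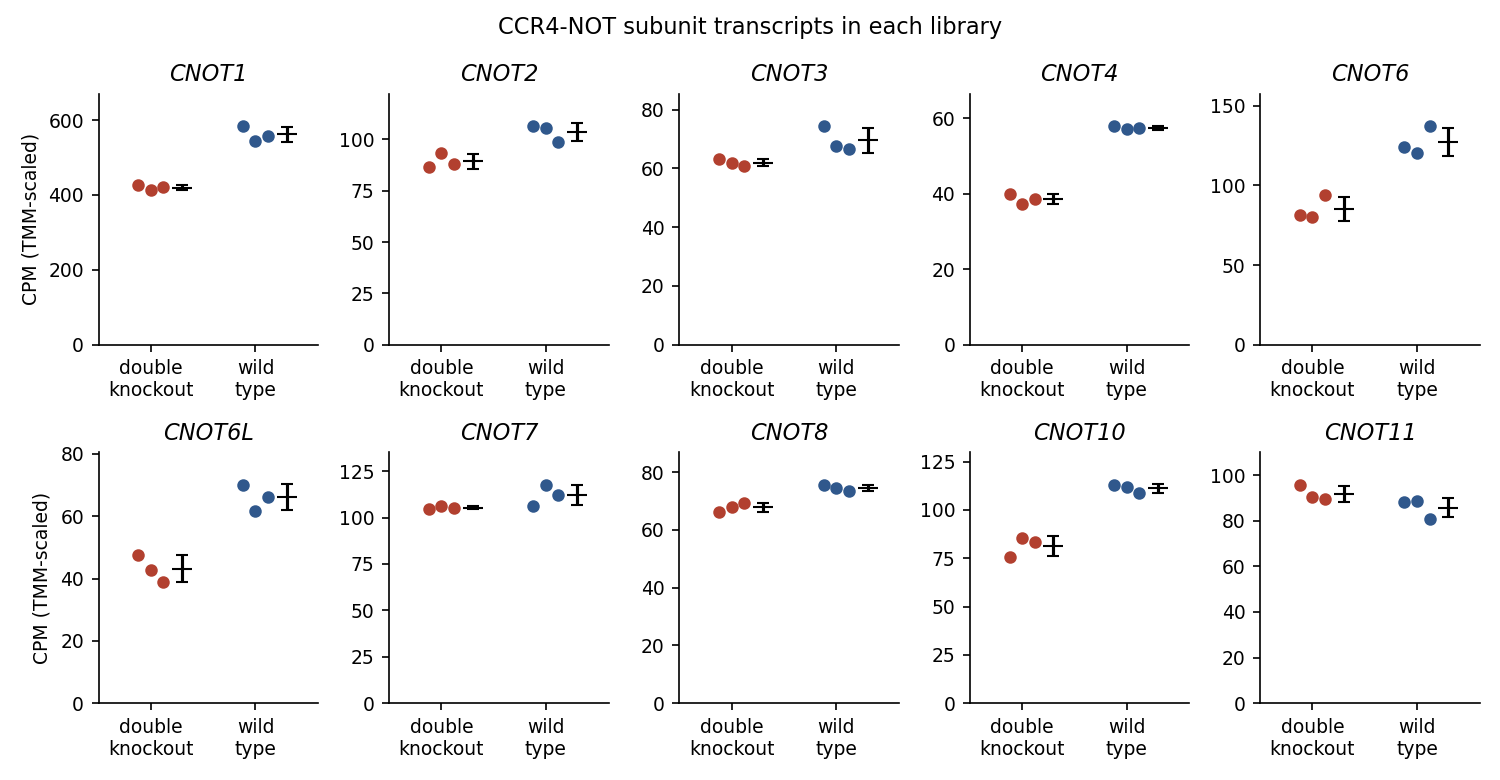
Level of each CCR4-NOT subunit transcript in CPM (y axis, from 0, a scale of its own in each panel) in the 3 double knockout and 3 wild type libraries. Points are libraries and black bars are the mean ± SD; the gap between groups is wide in CNOT1, CNOT4, CNOT6, CNOT6L and CNOT10 and narrow in CNOT7 and CNOT11.

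CNOT1 (ENSG00000125107.17, chromosome 16, 58519951 to 58629886, minus strand, hg38) is the scaffold on which the nuclease and NOT modules assemble. It had 426, 412 and 421 CPM in double knockout replicates 1 to 3, against 584, 545 and 557 CPM in wild type replicates 1 to 3. The highest double knockout library lay well under the lowest wild type library. CNOT1 averaged 420 ± 7.27 CPM in double knockout and 562 ± 19.7 CPM in wild type (SD, n = 3 each), a log2 fold change of -0.42 (SE 0.03, adjusted p = 2.20e-35). It was the most abundant subunit transcript per length in both groups, at 48.0 ± 0.831 RPKM in double knockout and 64.2 ± 2.25 RPKM in wild type, where RPKM is CPM per kb of exon. SETD6, on the opposite strand, shares 1086 bases with the exons of CNOT1, 12.4% of them, and was higher by 0.34 on the log2 scale (adjusted p = 8.74e-07), so the fall of CNOT1 was not shared by that overlapping gene.

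The EEP nucleases CNOT6 and CNOT6L, orthologs of yeast Ccr4, were both lower by about the same factor. CNOT6L (ENSG00000138767.13, chromosome 4, 77713387 to 77819615) had 47.6, 42.8 and 39.0 CPM in double knockout, against 70.1, 61.8 and 66.3 CPM in wild type. CNOT6 (ENSG00000113300.11, chromosome 5, 180494412 to 180578405) had 81.1, 80.3 and 93.8 CPM in double knockout, against 124, 120 and 137 CPM in wild type. In neither gene did the groups overlap. The log2 fold changes were -0.62 for CNOT6L (SE 0.07, adjusted p = 1.90e-17) and -0.57 for CNOT6 (SE 0.05, adjusted p = 8.88e-25). CNOT6L averaged 43.2 ± 4.30 CPM in double knockout and 66.1 ± 4.17 CPM in wild type, and CNOT6 averaged 85.1 ± 7.55 CPM in double knockout and 127 ± 8.86 CPM in wild type (SD, n = 3 each). The balance between the paralogs was therefore compared within each library. The log2 ratio of CNOT6L to CNOT6 counts was -0.77, -0.91 and -1.26 in double knockout, against -0.82, -0.96 and -1.05 in wild type. These ranges overlapped fully, the mean difference was -0.04, and the two-sided exact permutation test gave p = 0.9, where 3 against 3 libraries allow no p below 0.1. That difference turned to 0.11 without double knockout replicate 3 and to 0.02 without wild type replicate 1.

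The DEDD nucleases CNOT7 and CNOT8, orthologs of yeast Caf1 and the direct partners of CNOT6 and CNOT6L, changed little. CNOT7 (ENSG00000198791.11, chromosome 8, 17224964 to 17246878) had 105, 106 and 105 CPM in double knockout, against 107, 118 and 112 CPM in wild type. Wild type replicate 1 lay just above the highest double knockout library. The log2 fold change of CNOT7 was -0.09 (95% interval -0.18 to 0.01, adjusted p = 0.105), and without wild type replicate 1 it was -0.14 and passed (adjusted p = 0.0235). CNOT8 (ENSG00000155508.13, chromosome 5, 154857553 to 154876793) had 66.3, 67.9 and 69.5 CPM in double knockout, against 75.6, 74.4 and 73.3 CPM in wild type. All double knockout libraries were lower, by a small margin, and the log2 fold change was -0.13 (SE 0.06, adjusted p = 0.0392). The call of CNOT8 sat near the threshold: it was lost with DESeq2 (adjusted p = 0.162) and when 4 of the 6 libraries were left out singly, double knockout replicate 1 (adjusted p = 0.0961), double knockout replicate 2 (0.068), wild type replicate 1 (0.0856) and wild type replicate 2 (0.0505). The log2 ratio of CNOT8 to CNOT7 counts was -0.66, -0.65 and -0.60 in double knockout, against -0.49, -0.66 and -0.61 in wild type, a mean difference of -0.05 (two-sided exact permutation p = 0.7), which turned to 0.0021 without wild type replicate 1.

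Set side by side per length, the EEP pair was lower in every double knockout library relative to the DEDD pair. CNOT6 and CNOT6L together had 18.0, 17.3 and 19.0 RPKM in double knockout, against 27.2, 25.7 and 28.8 RPKM in wild type. CNOT7 and CNOT8 together had 35.7, 36.4 and 36.8 RPKM in double knockout, against 39.1, 40.1 and 39.0 RPKM in wild type. The ratio of the EEP sum to the DEDD sum was 0.498 ± 0.0209 in double knockout and 0.691 ± 0.0492 in wild type (SD, n = 3 each), and its libraries did not overlap. This ratio was formed after the values of its members were seen and was not tested.

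**Figure D2:**
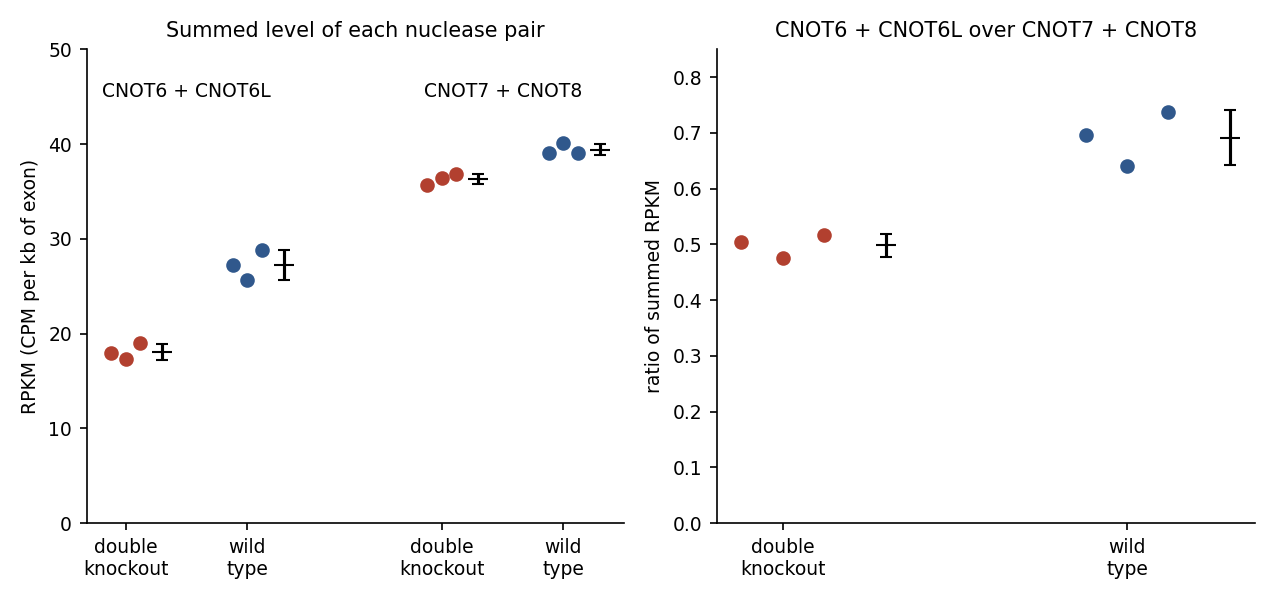
Left, summed RPKM (CPM per kb of exon) of CNOT6 with CNOT6L and of CNOT7 with CNOT8; right, the ratio of these sums, with the double knockout libraries left of the wild type libraries. Points are libraries and black bars are the mean ± SD; the ratio lies between 0.475 and 0.516 in double knockout and between 0.640 and 0.738 in wild type.

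CNOT2 and CNOT3 form the NOT module, a heterodimer at the C-terminal end of CNOT1 that contacts RNA-binding proteins and the ribosome. CNOT2 (ENSG00000111596.12, chromosome 12, 70242994 to 70354993) had 86.6, 93.6 and 88.2 CPM in double knockout, against 106, 106 and 98.8 CPM in wild type. Its log2 fold change was -0.22 (SE 0.05, adjusted p = 9.51e-05), and the antisense LINC01481, which shares 295 exon bases with it, was higher by 0.77. CNOT3 (ENSG00000088038.18, chromosome 19, 54137717 to 54155708) had 63.3, 62.0 and 60.8 CPM in double knockout, against 74.4, 67.8 and 66.6 CPM in wild type, a log2 fold change of -0.17 (SE 0.06, adjusted p = 0.011). Wild type replicate 1 was the highest CNOT3 library, and without it the change was -0.12 and did not pass (adjusted p = 0.120). DESeq2 did not call CNOT3 either (adjusted p = 0.0915). The interval of the CNOT3 change ran from -0.29 to -0.05 and that of CNOT2 from -0.32 to -0.12, and these overlap.

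CNOT10 and CNOT11 form a module at the N-terminal end of CNOT1. CNOT10 fell and CNOT11 did not pass, and the difference between them was not tested. CNOT10 (ENSG00000182973.18, chromosome 3, 32685145 to 32773875) had 75.6, 85.6 and 83.2 CPM in double knockout, against 113, 112 and 109 CPM in wild type, a log2 fold change of -0.45 (SE 0.05, adjusted p = 3.87e-16). CNOT11 (ENSG00000158435.7, chromosome 2, 101252802 to 101270316) had 95.7, 90.3 and 89.3 CPM in double knockout, against 88.0, 88.5 and 80.8 CPM in wild type. It was the single subunit with a positive log2 fold change, 0.09 (95% interval -0.01 to 0.20, adjusted p = 0.135), and it turned to -0.01 with spike-in scaling. Per length, CNOT10 stood at 26.3 ± 1.68 RPKM and CNOT11 at 35.3 ± 1.33 RPKM in double knockout, whereas in wild type CNOT10 stood at 35.8 ± 0.707 RPKM and CNOT11 at 33.0 ± 1.66 RPKM (SD, n = 3 each). CNOT11 was thus above CNOT10 in every double knockout library and below it in every wild type library.

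CNOT4 is a RING ubiquitin ligase that in human cells is only loosely tied to the complex. CNOT4 (ENSG00000080802.18, chromosome 7, 135361795 to 135510127) had 39.8, 37.3 and 38.6 CPM in double knockout, against 57.9, 57.0 and 57.4 CPM in wild type. The libraries of each group lay close together and far from those of the other group. The log2 fold change was -0.58 (SE 0.07, adjusted p = 4.69e-14), in size next to that of CNOT6L among the subunits.

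The order of the subunit transcripts per length was, in double knockout, CNOT1, CNOT11, CNOT10, CNOT8, CNOT7, CNOT6, CNOT2, CNOT3, CNOT4 and CNOT6L, from 48.0 to 4.81 RPKM. In wild type it was CNOT1, CNOT10, CNOT11, CNOT8, CNOT6, CNOT2, CNOT7, CNOT3, CNOT4 and CNOT6L, from 64.2 to 7.36 RPKM. In double knockout CNOT6, at 13.3 RPKM, overlapped over the libraries with both CNOT7 (13.5 RPKM) and CNOT2 (12.7 RPKM). The lowest CNOT7 library, at 13.41 RPKM, lay just above the highest CNOT2 library, at 13.29 RPKM. CNOT8 above these genes and CNOT3 below them stood apart. In wild type CNOT6 stood apart at 19.9 RPKM, and CNOT2 (14.7 RPKM) and CNOT7 (14.4 RPKM) overlapped. Summed over the 10 subunits the level was 1087, 1078 and 1088 CPM in double knockout, against 1399, 1350 and 1358 CPM in wild type, and 661 to 667 CPM against 801 to 816 CPM with CNOT1 left out. Lengths are those of the union of annotated exons, so a gene that uses short isoforms has an understated RPKM.

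Exon length moved with the direction of change among the tested protein-coding genes. Of those with over 6 to 9 kb of exon, the range that holds CNOT1, CNOT2, CNOT3, CNOT4, CNOT6, CNOT6L and CNOT7, 42.7% were lower and 23.1% higher in double knockout. Of those with over 2 to 4 kb, the range of CNOT8, CNOT10 and CNOT11, 24.7% were lower and 33.3% higher. The part of this in the falls of the subunits was not tested.

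Genes of some chromosome parts moved together, so each subunit was set beside the tested genes that start within 5 Mb of it. 2 of the subunits that fell lay close to the median of the genes around them. CNOT6L changed by -0.62 and its 35 neighbours had a median of -0.59, with 26 lower and 2 higher. CNOT10 changed by -0.45 and its 31 neighbours had a median of -0.43, with 20 lower and 2 higher. The median was -0.61 within 2 Mb and -0.52 within 10 Mb of CNOT10, both further below 0 than CNOT10 itself, and -0.44 over the 787 tested genes of chromosome 3. Around CNOT6L it was -0.64 within 2 Mb and -0.59 within 10 Mb, and -0.28 over the 548 tested genes of chromosome 4. The genes next to CNOT6L, CCNG2 and MRPL1, had -1.16 and -1.01, and those next to CNOT10, DYNC1LI1 and TRIM71, had -0.39 and -0.15.

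Within 5 Mb CNOT1, CNOT4 and CNOT6 lay furthest under the medians of their surroundings, a difference that was not tested. The 46 genes around CNOT1 had a median of 0.17, with 22 higher and 6 lower, so that CNOT1 lay 0.59 under them on the log2 scale. CNOT4 lay at -0.58 against a median of -0.09 over 39 genes, a median that was -0.29 within 2 Mb and 0.07 within 10 Mb. CNOT6 lay at -0.57 against -0.29 over 78 genes, of which 48 were lower, and the lower quartile of these genes was -0.53, close to CNOT6. CNOT3 changed by -0.17 (95% interval -0.29 to -0.05) against a median of -0.28 over 172 genes. That median was -0.20 within 2 Mb, close to CNOT3, and -0.27 within 10 Mb. The remaining subunits, CNOT2, CNOT7, CNOT8 and CNOT11, had surroundings with medians between -0.04 and 0.03. CNOT2, CNOT7 and CNOT8 also lay under these medians, with differences of -0.18, -0.12 and -0.16, and CNOT11 lay above, at 0.13. Within 2 Mb the median was -0.11 around CNOT8, -0.0086 around CNOT7 and 0.04 around CNOT11, each with its sign turned. Whether the chromosome parts account for the subunits that follow them was not tested.

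**Figure D3:**
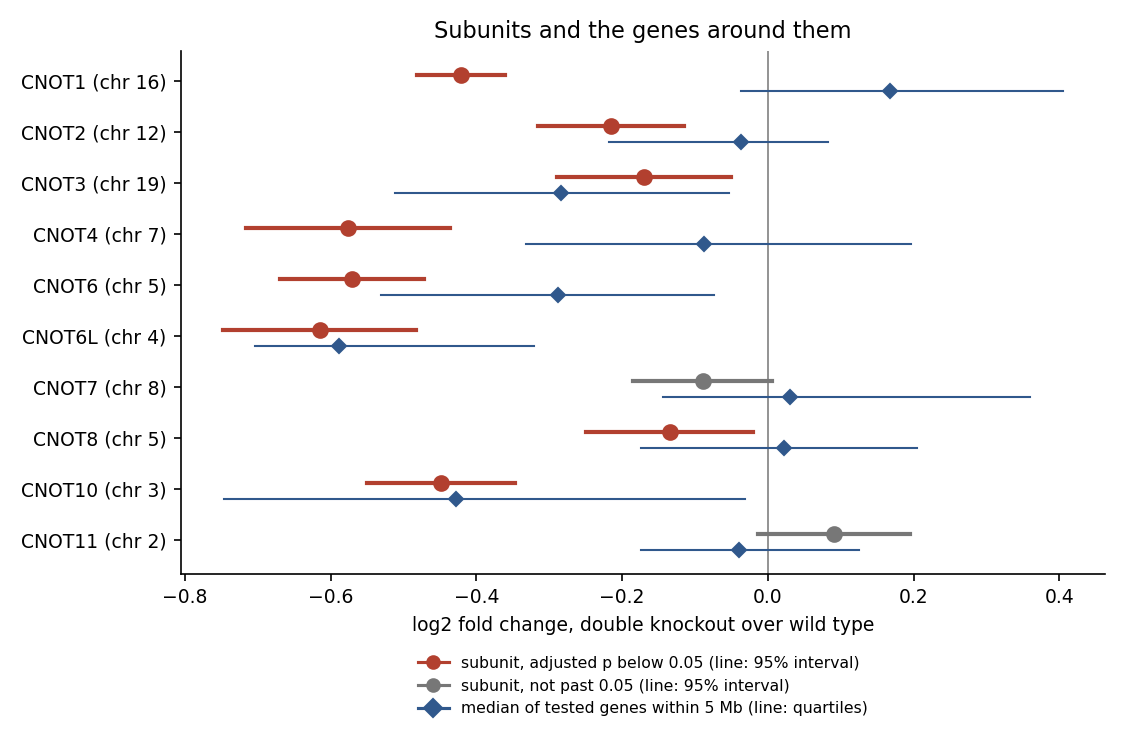
Log2 fold change, double knockout over wild type (x axis), of each subunit (circles, with 95% intervals) and of the tested genes that start within 5 Mb of it (diamonds, medians, with lines for the quartiles). Within 5 Mb CNOT6L and CNOT10 sit close to the medians of their surroundings (for CNOT10 the median is -0.61 within 2 Mb and -0.52 within 10 Mb), and CNOT1 sits at -0.42 where its surroundings have 0.17.

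Promoter sequences from RefSeq (GRCh38.p14, 250 bases before to 50 after a transcript start) were at hand for 8 of the 10 subunits. In the window nearest to the annotated gene start, both strands were searched for short motifs. The GC box, the site of Sp1 and related factors, was searched as GGGCGG. The core of sites for ETS factors was searched as CCGGAAG. Part of the site of NRF1, a factor of housekeeping promoters, was searched as CATGCGC. The site of the factor YY1 was searched as AAGATGGCG. The box bound by the factor NF-Y was searched as CCAAT. The box bound by the TATA-binding protein was searched as TATAAA. The GC box was found in 6 of the 8, against 45% of all 35116 windows, and the CCAAT box in 4, against 34.6%. Each subunit has 1 window here, whereas all windows include several for some genes, so the shares are not of like sets. In further windows CNOT8 held a GC box, and CNOT2 the CCAAT box and the YY1 letters. The YY1 letters were found in 1, CNOT3, against 1.75%. The ETS, NRF1 and TATA letters were found in 0, against 10.3%, 4.43% and 11.5%. The NRF1 letters were chosen after a longer pattern had been searched, so the count of 0 rests on that choice. The window of CNOT10, one of the 4 genes with a CCAAT box and of the 2 without a GC box, lies 10396 bases from the annotated gene start and holds 35.3% GC. The median GC content was 66.8% over the windows of the subunits and 58.7% over all windows. 3 genes that fell and CNOT11, which did not, are shown to set side by side the promoters of genes that moved differently, with the matches in capitals.
CNOT6L (chr4:77819319-77819618, minus strand): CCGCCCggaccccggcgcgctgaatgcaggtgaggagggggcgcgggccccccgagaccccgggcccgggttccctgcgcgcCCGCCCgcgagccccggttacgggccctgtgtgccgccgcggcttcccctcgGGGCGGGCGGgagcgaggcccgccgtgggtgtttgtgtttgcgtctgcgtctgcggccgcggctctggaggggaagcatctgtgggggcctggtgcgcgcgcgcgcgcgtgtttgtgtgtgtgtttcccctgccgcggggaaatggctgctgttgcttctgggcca
CNOT6 (chr5:180494129-180494428, plus strand): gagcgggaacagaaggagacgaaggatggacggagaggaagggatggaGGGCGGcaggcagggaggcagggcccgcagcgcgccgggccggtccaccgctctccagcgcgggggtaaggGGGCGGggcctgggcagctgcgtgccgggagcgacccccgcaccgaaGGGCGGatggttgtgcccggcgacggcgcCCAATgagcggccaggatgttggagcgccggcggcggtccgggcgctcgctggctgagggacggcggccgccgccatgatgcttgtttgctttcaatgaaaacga
CNOT4 (chr7:135510053-135510352, minus strand): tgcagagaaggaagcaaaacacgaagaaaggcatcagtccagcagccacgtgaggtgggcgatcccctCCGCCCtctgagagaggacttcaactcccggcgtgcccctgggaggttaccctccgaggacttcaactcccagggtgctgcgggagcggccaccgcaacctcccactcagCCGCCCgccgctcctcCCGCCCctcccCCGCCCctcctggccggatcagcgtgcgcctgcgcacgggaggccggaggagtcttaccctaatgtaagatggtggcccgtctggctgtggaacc
CNOT11 (chr2:101252636-101252935, plus strand): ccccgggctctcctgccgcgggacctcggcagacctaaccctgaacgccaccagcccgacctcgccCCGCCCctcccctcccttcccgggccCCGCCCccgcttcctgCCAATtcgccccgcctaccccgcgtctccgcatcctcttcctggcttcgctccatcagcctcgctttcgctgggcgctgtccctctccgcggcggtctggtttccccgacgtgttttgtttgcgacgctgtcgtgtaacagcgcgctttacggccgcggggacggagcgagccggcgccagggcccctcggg
The GC box stood in all 4, that is in the 3 genes that fell and in CNOT11. In CNOT6L a pair of its matches overlaps. A match in these windows describes the letters only.

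Other genes of deadenylation and decay were taken from lists written out by role, and are given as counts in both directions. Beside each count stand the shares over all tested genes, 28.5% lower and 28.6% higher. Of 5 other CCR4-NOT partners 1 rose and 1 fell: GIGYF1 changed by 0.17 and GIGYF2, which with EIF4E2 represses translation, by -0.15. CNOT9, a subunit that binds beside the centre of CNOT1, had 190 CPM in double knockout and 194 CPM in wild type (log2 fold change -0.03, adjusted p = 0.514). Of 5 tested BTG and TOB adaptors, which dock on CNOT7 and CNOT8, 2 rose and 2 fell. BTG1 rose by 0.49 and BTG3 by 0.31, whereas TOB2 fell by 0.26 and TOB1 by 0.24, in double knockout against wild type on the log2 scale.

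Of 7 tested other deadenylases 1 rose and 3 fell. PARN rose by 0.16. PAN3, which holds the nuclease PAN2 in a separate deadenylase complex, fell by 0.20, ANGEL2 by 0.35 and the mitochondrial enzyme gene PDE12 by 0.41. PDE12 lies on chromosome 3, whose 787 tested genes had a median log2 fold change of -0.44. Of 7 tested poly(A) binding proteins and their regulators 3 rose and 2 fell. PABPC4 rose by 0.26, PAIP2 by 0.16 and PAIP1 by 0.19, while PABPC1, the main cytoplasmic poly(A) binding protein, fell by 0.11 and PAIP2B by 0.41.

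Of 24 tested mRNA-binding recruiters, proteins that bring CCR4-NOT to selected mRNAs, 5 rose and 10 fell, with a median of -0.01. TNRC6A fell by 0.53 and TNRC6B by 0.49 (adjusted p = 9.39e-29 and 1.09e-25, edgeR). These encode the GW182 proteins that link Argonaute to CCR4-NOT in microRNA silencing, and TNRC6C, named after its value was seen, fell by 0.39. SAMD4B fell by 0.45 and its paralog SAMD4A rose by 0.61. CPEB2 rose by 0.83, and NANOS3, with a mean of 2.77 CPM in double knockout and 1.05 CPM in wild type, by 1.33. YTHDF2, the m6A reader that recruits the complex, had 164 CPM in double knockout and 159 CPM in wild type (log2 fold change 0.04, adjusted p = 0.405).

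Of 19 tested genes of decapping and 5′ to 3′ decay, the steps that follow deadenylation, 3 rose and 11 fell, with a median of -0.15. LSM6 fell by 0.72 and LSM5 by 0.65, subunits of the LSM ring that binds shortened tails, and DCP1A, a partner of the decapping enzyme, fell by 0.66. The tested genes of their chromosomes had medians of -0.28 (chromosome 4, LSM6), 0.05 (chromosome 7, LSM5) and -0.44 (chromosome 3, DCP1A). The surroundings of the list genes were not examined. LSM4 rose by 0.25 and LSM2 by 0.15, so that LSM ring genes moved in both directions, although neither rise passed with spike-in scaling. Of the other ring genes LSM3 fell by 0.20, and LSM1 (-0.02) and LSM7 (0.06) did not pass. LSM14A, which is not part of the ring, rose by 0.14. The shares that fell and rose in these 6 lists stood against 28.5% lower and 28.6% higher over all tested genes. No list was tested as a set. Calls of GIGYF1, TOB1, PARN, PAIP1 and LSM2 did not survive the removal of some single libraries. Of these, GIGYF1, PARN, PAIP1 and LSM2 were also lost with DESeq2 (adjusted p = 0.0947, 0.0548, 0.0738 and 0.109). With spike-in scaling, which moved the median of all tested genes by -0.11 on the log2 scale, the calls of GIGYF1, BTG3, PARN, PABPC4, PAIP2, PAIP1, LSM4, LSM14A and LSM2 were lost. Other scalings took calls from genes that fell. With upper quartile factors the calls of PABPC1 (-0.05) and GIGYF2 (-0.09) were lost, and with total counts that of PABPC1 (-0.06).

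**Figure D4:**
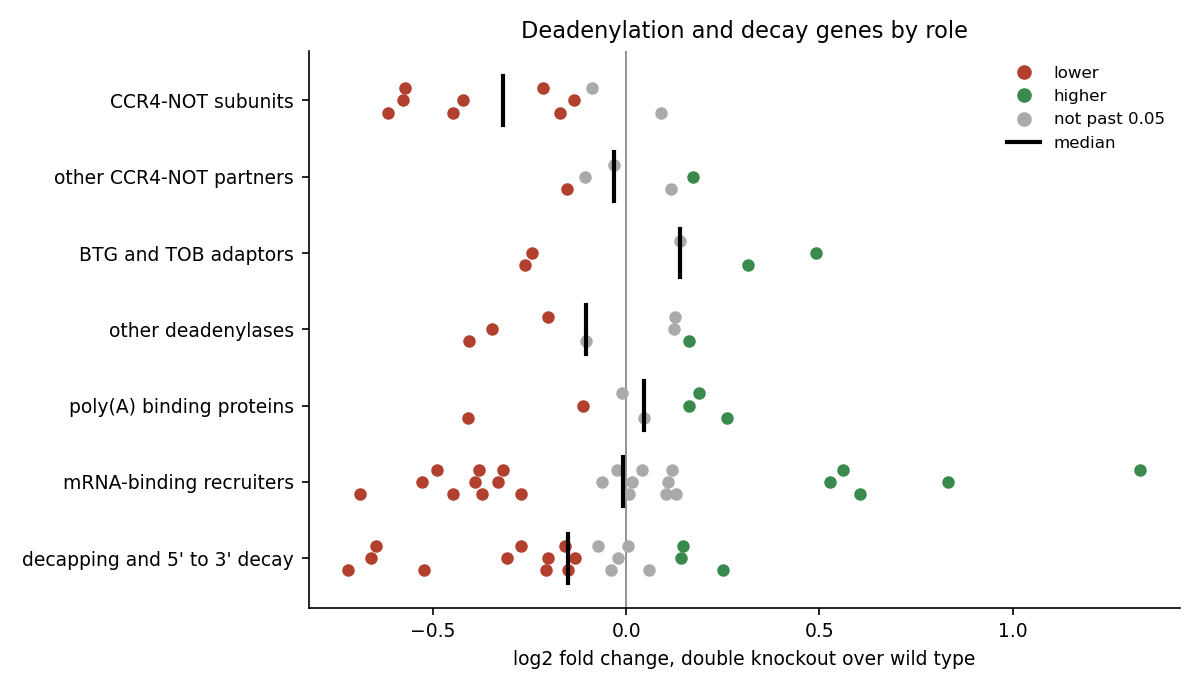
Log2 fold change, double knockout over wild type (x axis), of each tested gene in the CCR4-NOT list and in 6 lists of related genes. Each point is a gene, coloured by whether it was lower, higher or not past an adjusted p of 0.05, and black bars are medians, which are -0.32 for the CCR4-NOT subunits and -0.15 for decapping and 5′ to 3′ decay.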

How the data were processed

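RNA of 3 double knockout and 3 wild type libraries was sequenced. Per the submitters' processing notes the authors used cutadapt 2.10, STAR 2.7.6a and featureCounts with hg38; the featureCounts version, strand setting and handling of reads with several alignments are not given in the sources used here, so counts of overlapping genes are uncertain although the kit keeps strand. The authors deposited unnormalised read counts for 58721 genes, all matched to GENCODE release 29, with 4 spike-in rows left out of totals and tests (0.0104% to 0.0125% of counts). A count of 0 allows up to 3 counts, 0.407 to 0.545 CPM after TMM scaling.

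Counts were compared in R 4.3.3 with edgeR 4.0.16: filterByExpr (minimum count 10, minimum total 15), TMM, glmQLFit in robust mode and glmQLFTest on group, double knockout over wild type, two-sided, Benjamini-Hochberg adjusted over 14180 genes (threshold 0.05). Standard errors are the log2 fold change over the root of F. Alternatives used limma 3.58.1, DESeq2 1.42.0, other scalings and filters, a replicate block, and each library left out. Spike-in scaling used only the GFP and fLuc rows of the spike-ins. Together these held 316 to 440 counts per library, so that scaling is imprecise. The steps were checked on simulated data. Ratios of paralogs were tested by exact permutation over libraries. The members and lists were chosen with earlier results of these data known. Genes named from each list are the 3 changed ones with the smallest p in each direction. CNOT9, YTHDF2, LSM1, LSM3, LSM7 and neighbouring genes were added for their roles or positions. After group means were removed, libraries of the same replicate number correlated at 0.0106, 0.0166 and 0.0085, so no pairing by number was seen. Whether the libraries were handled as pairs cannot be read from these values.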

Additional observations from a re-analysis of the deposited data

How the results depend on the processing

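CNOT1, CNOT4, CNOT6, CNOT6L and CNOT10 kept their direction and their call under all 16 alternatives, with log2 fold changes of -0.53 to -0.36, -0.68 to -0.51, -0.68 to -0.51, -0.72 to -0.55 and -0.56 to -0.38 in that order. CNOT2 lost its call only against a minimum change of 1.2-fold (-0.22, adjusted p = 0.947). CNOT3 lost its call with that minimum (-0.17, adjusted p = 1), with upper quartile factors (-0.11), with total counts (-0.12) and with DESeq2 (-0.17). CNOT8 lost its call with the 1.2-fold minimum (-0.13), upper quartile factors (-0.070), total counts (-0.082), a mean CPM of at least 5 (-0.12) and DESeq2 (-0.13). CNOT11 passed with upper quartile factors (0.16, adjusted p = 0.00794) and total counts (0.14, adjusted p = 0.0147), and was -0.012 with spike-in scaling. The cause of these shifts was not tested.

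With single libraries left out, log2 fold changes lay between -0.20 and -0.12 for CNOT3, between -0.15 and -0.12 for CNOT8, between -0.14 and -0.057 for CNOT7, and between 0.051 and 0.11 for CNOT11, lowest without wild type replicate 3 and 0.055 without double knockout replicate 1. The difference of the log2 ratio CNOT6L over CNOT6 lay between -0.14 and 0.11 and that of CNOT8 over CNOT7 between -0.081 and 0.0021. With the replicate block, fitted although no pairing by number was seen, 8 subunits were lower and 0 higher. No subunit's call changed (CNOT8 had -0.14, adjusted p = 0.0344), and 4054 genes were higher and 4055 lower. The paired sign-flip test of the 2 paralog ratios gave exact p = 1 for both. With 3 pairs that test allows no p below 0.05, so it could not have shown a change.

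Over all tested genes, 4055 were higher and 4038 lower in the main fit. With spike-in scaling 2133 were higher and 4236 lower, and with the 1.2-fold minimum 2029 were higher and 1758 lower. Upper quartile factors gave 4972 higher and 3227 lower, and total counts gave 4795 higher and 3387 lower. DESeq2 gave 3027 higher and 3138 lower, and no low-count filter gave 3889 higher and 3996 lower. The counts below stand beside these shifts over all genes. Of the subunits 1 was higher with upper quartile factors and with total counts, and 5 were lower with the 1.2-fold minimum. For the related lists, upper quartile factors and total counts gave 2 higher CCR4-NOT partners, 2 higher other deadenylases and 1 lower poly(A) binding protein, and upper quartile factors gave 0 lower partners and 7 lower decapping genes. Spike-in scaling gave 0 higher partners, 1 higher BTG or TOB gene, 0 higher other deadenylases, 0 higher poly(A) binding proteins, 3 higher recruiters and 0 higher decapping genes. No low-count filter gave 0 higher partners, and DESeq2 gave 0 higher partners and 0 higher other deadenylases. The 1.2-fold minimum gave 0 higher and 0 lower partners, 1 higher and 0 lower BTG or TOB genes, 0 higher and 1 lower other deadenylases, 0 higher and 1 lower poly(A) binding proteins, 3 higher recruiters, and 0 higher and 4 lower decapping genes. Leaving out libraries gave 0 to 1 higher partners, 1 to 2 lower BTG or TOB genes and 0 to 2 higher other deadenylases.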
